A study of Mus musculus with 6 samples.

Results

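Fatty acid and glycerolipid synthesis was described through 40 genes, of which 37 were measured among the 22180 genes of the arrays. The list of enzymes, lipid droplet proteins and regulators was chosen with earlier results of these data known. A member counted as measured when at least 1 probe set named it and no other gene. Scd2, Acsl1 and Acsl3 had no such probe set and are not analysed here. RNA came from mouse cumulus-oocyte complexes (COCs), in which cumulus cells, a form of granulosa cell, surround an immature oocyte. Wildtype mice had received 5 IU of equine chorionic gonadotropin 46 h before collection, and their age is labelled as 21 days in one field and 23 days in another. Lots of 100 complexes were kept in MEM-alpha with 3 mg/ml of bovine serum albumin for 14 h or 16 h, since the labels give both times, and the medium of every sample held 5 µM milrinone, a PDE3 inhibitor that holds oocytes in meiotic arrest. The 3 control samples received DMSO, the vehicle, and the 3 treated samples received 5 µM Torin1, an inhibitor of the catalytic site of the kinase MTOR. Nothing in the labels says that the samples of a group are from different mice or days. The p-values below therefore reflect only how far these samples varied, and that variation may be technical.

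De novo fatty acid synthesis turns cytosolic citrate or acetate into acetyl-CoA, carboxylates it to malonyl-CoA, and builds palmitate from these units. Elongases and desaturases then lengthen and unsaturate palmitate or fatty acids from the diet, acyl-CoA synthetases activate free fatty acids, and acyltransferases assemble them on glycerol into phospholipids and triacylglycerol. The sterol regulatory element binding proteins (SREBPs) are the best known transcriptional activators of this route, and MTOR complexes are known to act upstream of them. COCs store triacylglycerol in lipid droplets, and fatty acid handling by both cell types bears on oocyte maturation.

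With Torin1, 8 of the 10 called genes of synthesis, desaturation and elongation fell, among them Acaca, Fasn, Fads1 and Fads2. Acsl4 and Acsl5, the called members of the activation step, rose. Falls were called for 9 of the 37 members, rises for 5 and neither for 23, where a call is an adjusted p below 0.05 in limma over all genes. The falls took 24.3% of the members and the rises 13.5%, against 6.94% and 5.13% of all genes. Since the list was chosen with earlier results known, such shares describe the members and test nothing. Members were brighter than most genes, since 35 of 37 lay above the median gene, and among all genes above that level 12.6% fell and 9.46% rose; the corresponding shares of these 35 members were 25.7% and 14.3%. Values of the 2 groups did not overlap for 23 members (62.2%), against 28.6% of all genes. Above the median gene they did not overlap for 23 of 35 members and 4921 of 11090 genes. The median log2 change was -0.24 over members and 0.01 over all genes. When any 1 array was left out, 7 to 10 members were called lower and 4 to 7 higher.

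The steps differed in direction, as a description with no test between them. In synthesis 3 of 5 fell and 0 rose (median log2 change -0.55), and in desaturation 2 of 5 fell and 1 rose (median -1.34). Among elongation genes 3 of 8 fell and 1 rose, with a median of -0.21. In activation 2 of 3 rose and 0 fell, with a median of 1.25. Glycerolipid assembly had 1 fall and 1 rise among 10 genes (median -0.07), while 0 of 4 storage and lipolysis genes and 0 of 2 lipogenic regulators were called. At an unadjusted p below 0.05 in limma these counts were 2 and 0, the 2 being Plin3 and Lipe, both with changes below 0. The share of all genes at that unadjusted threshold was not computed, so these counts have no background to be read against.

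**Figure D1:**
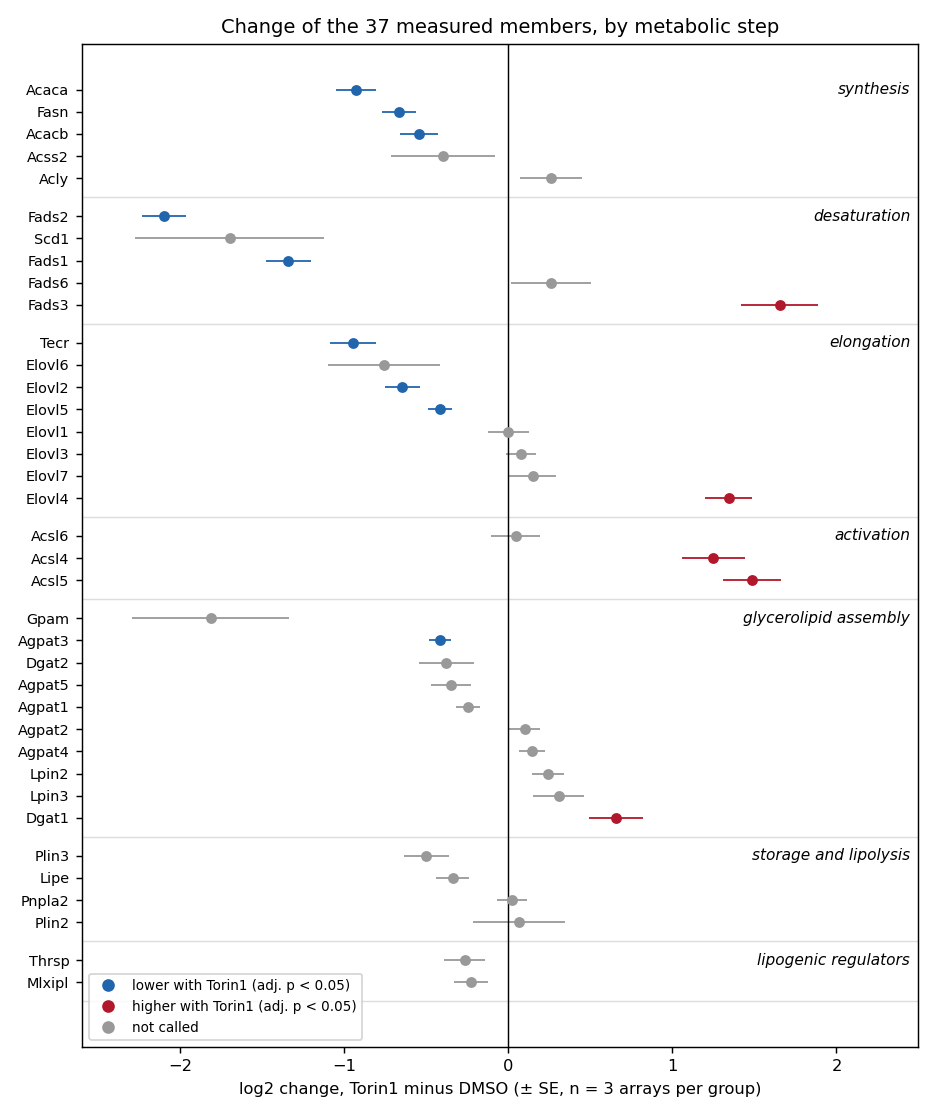
Log2 change (Torin1 minus DMSO) on the horizontal axis for each of the 37 measured members, grouped by step, with bars for the SE from limma on 3 arrays per group. Blue points are called lower, red points higher and grey points are not called. The desaturases span the widest range, from -2.10 for Fads2 to 1.66 for Fads3, and the activation genes are at or above 0.04.

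The samples were checked against cell markers. Oocyte markers summed to 7067 to 7561 intensity units in DMSO and 7902 to 8577 in Torin1, and 2 of 15 rose and 0 fell (median log2 change 0.21). Granulosa and cumulus markers summed to 5447 to 5634 in DMSO and 2446 to 2773 in Torin1, and 10 of 12 fell (median -1.34). The 12 granulosa and cumulus changes ran from -3.997 to 0.004. Because the RNA is from whole complexes, fewer cells of a type, less RNA per cell and regulation of single markers cannot be told apart. The part of this shift in the changes of lipid genes was not tested. Adipocyte markers, looked at because fat surrounds the ovary, summed to 59.8 to 65.9 in DMSO and 53.4 to 96.9 in Torin1, 4 of 6 lay below the median gene on every array, and Adipoq was at 2.58 to 2.74 on the log2 scale. Leukocyte and ovarian surface epithelium markers summed to 68.05 to 75.6 and 63.4 to 70.2 in DMSO and to 78.4 to 83.5 and 60.8 to 71.9 in Torin1, and the leukocyte marker Cd68 was the 1 of these 13 that was called (higher, 0.54). Endothelial markers summed to 110.3 to 113.9 in DMSO and 159.9 to 273.3 in Torin1, where Cdh5 was the 1 of 6 called higher. Theca and steroidogenic markers summed to 246.8 to 313 in DMSO and 134.6 to 219.8 in Torin1, with 2 of 5 called lower (Ptch1 and Gli1). The steroidogenic genes Hsd3b1, Cyp17a1 and Cyp11a1 overlapped between the groups and were not called, with changes of 0.99, 0.05 and -0.18. Red cell markers had no probe set naming them alone. Torin1 sample 3 stood apart from the other 2 Torin1 samples on the second principal component (16.5% of the variance), and its description carries the short name of sample 2. For members at which it lay more than 0.5 from both other Torin1 samples, the change is given with and without it. For other lipid genes this is done only for some.

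The promoters of 6 members show the genes that set the contrast: the fatty acid synthase gene, the leading fall and rise with an entry among desaturases and among elongation genes, and the leading rise of activation. RefSeq on GRCm38.p6 had promoter entries for 33 of the 40 members (31 of the measured ones); Fads1 is among the 7 without. The 250 bases before the annotated start were searched on both strands for a sterol regulatory element core (TCACNCCAC), the E-box CACGTG, the CCAAT box (CCAAT, bound by NF-Y) and the GC box (GGGCGG, bound by SP factors). These motifs were in 1.05%, 6.02%, 33.8% and 32.7% of all 32851 promoter windows of that length. Capitals mark the matches.
Fasn (chr11:120824548-120824797, minus strand): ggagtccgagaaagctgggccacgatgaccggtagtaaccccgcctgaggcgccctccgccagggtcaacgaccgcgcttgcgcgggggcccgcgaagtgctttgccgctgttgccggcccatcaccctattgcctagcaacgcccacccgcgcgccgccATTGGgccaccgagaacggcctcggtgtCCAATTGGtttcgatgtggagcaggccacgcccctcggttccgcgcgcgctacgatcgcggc
Fads2 (chr19:10101504-10101753, minus strand): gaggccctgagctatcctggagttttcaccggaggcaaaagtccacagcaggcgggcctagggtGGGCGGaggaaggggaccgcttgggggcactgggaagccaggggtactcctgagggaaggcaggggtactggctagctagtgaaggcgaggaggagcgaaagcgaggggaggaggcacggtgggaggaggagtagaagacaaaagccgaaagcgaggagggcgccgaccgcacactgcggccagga
Fads3 (chr19:10041298-10041547, plus strand): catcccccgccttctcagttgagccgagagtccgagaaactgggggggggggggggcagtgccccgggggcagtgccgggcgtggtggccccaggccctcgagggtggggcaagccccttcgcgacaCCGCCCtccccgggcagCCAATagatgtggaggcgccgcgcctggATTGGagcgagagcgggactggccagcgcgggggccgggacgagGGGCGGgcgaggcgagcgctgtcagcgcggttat
Tecr (chr8:83594492-83594741, minus strand): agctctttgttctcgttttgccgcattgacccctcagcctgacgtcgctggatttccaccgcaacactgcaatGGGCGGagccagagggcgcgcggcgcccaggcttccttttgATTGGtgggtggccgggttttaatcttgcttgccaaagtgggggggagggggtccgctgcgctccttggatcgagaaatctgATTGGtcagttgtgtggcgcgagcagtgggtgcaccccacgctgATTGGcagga
Elovl4 (chr9:83806306-83806555, minus strand): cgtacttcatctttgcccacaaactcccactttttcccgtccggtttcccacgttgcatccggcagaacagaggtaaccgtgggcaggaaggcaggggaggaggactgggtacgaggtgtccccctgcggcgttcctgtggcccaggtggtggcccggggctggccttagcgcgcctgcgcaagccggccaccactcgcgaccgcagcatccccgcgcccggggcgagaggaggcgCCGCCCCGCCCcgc
Acsl5 (chr19:55253119-55253368, plus strand): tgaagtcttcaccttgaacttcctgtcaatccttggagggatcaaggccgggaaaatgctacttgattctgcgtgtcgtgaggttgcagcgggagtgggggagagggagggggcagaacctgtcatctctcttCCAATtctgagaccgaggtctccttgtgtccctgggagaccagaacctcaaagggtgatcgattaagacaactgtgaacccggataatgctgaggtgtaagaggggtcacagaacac

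Of 8 called-lower members with an entry, 4 had a CCAAT box, 3 a GC box, 1 an E-box and 0 a sterol regulatory element core in any of their windows. Of 4 called-higher members with an entry, 2 had a CCAAT box, 3 a GC box and 0 either of the other motifs. Of the 19 uncalled members with an entry, 11 had a CCAAT box, 15 a GC box, 3 an E-box and 1 a sterol regulatory element core. A member can have several windows, so these counts are not on the footing of the shares per window. Fasn held 3 CCAAT boxes, starting 90, 62 and 59 bases before the start, the last 2 of which share 2 bases. Tecr held 3 CCAAT boxes and 1 GC box, and Fads3 held 2 of each. Fads2 and Acsl5 held 1 match each, a GC box and a CCAAT box, and Elovl4 held 2 GC boxes that share 1 base. A match describes these letters only and is no evidence of binding.

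Synthesis genes fell from the carboxylase step on. Acaca encodes the cytosolic acetyl-CoA carboxylase that makes malonyl-CoA for chain building. It was at 6.39, 6.32 and 6.55 in DMSO and 5.42, 5.72 and 5.34 in Torin1 samples 1 to 3 (log2 of intensity + 1, the scale of every level below). The groups did not overlap, and the change was -0.93 ± 0.12 (SE), or 1.90-fold lower (limma, adjusted p = 0.00385). Acacb, whose product makes malonyl-CoA at the mitochondrial surface, where it restrains fatty acid oxidation, read 5.04, 5.35 and 5.34 in DMSO and 4.54, 4.75 and 4.79 in Torin1. Every Torin1 value lay below every DMSO value, and the gene fell by 0.55 ± 0.12 (limma, adjusted p = 0.0249). The call on Acacb was lost when DMSO 2 or 3 or Torin1 1 or 2 was left out (highest adjusted p 0.0977). Fasn, for the synthase that releases palmitate, read 8.28, 8.27 and 8.46 in DMSO and 7.58, 7.57 and 7.85 in Torin1. It fell by 0.67 ± 0.11, or 1.59-fold, with no overlap (limma, adjusted p = 0.00792).

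The genes that supply acetyl-CoA were not called. Acly, the ATP-citrate lyase gene, was at 8.22, 8.22 and 8.34 in DMSO and 8.34, 8.23 and 8.97 in Torin1, so the groups overlapped and only Torin1 3 stood high (0.26 ± 0.19, limma adjusted p = 0.520; 0.03 without Torin1 3). Acss2, for the synthetase that forms acetyl-CoA from acetate, was at 5.32, 5.62 and 5.99 in DMSO and 5.46, 5.74 and 4.54 in Torin1. Here Torin1 3 alone was low, and the change was -0.40 ± 0.32 with all samples (limma, adjusted p = 0.557) and -0.05 without Torin1 3.

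Desaturase genes changed most, and in opposite directions. Fads2 encodes the desaturase that opens the conversion of linoleic and linolenic acid to long polyunsaturated fatty acids. It was at 8.63, 8.93 and 9.12 in DMSO and 6.75, 6.73 and 6.90 in Torin1. The 3 Torin1 values lay close together and far below DMSO. Fads2 fell by 2.10 ± 0.13, or 4.29-fold (limma, adjusted p = 0.000229), the furthest below 0 of the 37 members. Fads1, the desaturase of the later step of that route, went from 8.62, 8.77 and 9.01 to 7.28, 7.42 and 7.68. It fell by 1.34 ± 0.14, or 2.54-fold, with no overlap (limma, adjusted p = 0.00144). Fads3, whose product desaturates sphingoid bases of ceramides, moved the other way, from 4.81, 5.38 and 5.82 in DMSO to 6.91, 7.14 and 6.94 in Torin1. All Torin1 values exceeded all DMSO values, and the rise was 1.66 ± 0.24, or 3.15-fold (limma, adjusted p = 0.00535). Fads3, Fads2 and Fads1 lie next to each other on chromosome 19 with no other protein-coding gene between them in RefSeq GRCm38.p6. Each of the 3 was called whichever array was left out (highest adjusted p 0.0242, for Fads3).

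Scd1, for the stearoyl-CoA desaturase that makes oleate and palmitoleate, was at 5.08, 5.79 and 6.53 in DMSO and 4.72, 4.76 and 2.82 in Torin1. The groups did not overlap, but both spread widely, and the change of -1.70 ± 0.58 was not called (limma, adjusted p = 0.119). Without Torin1 3 it was -1.06 (adjusted p = 0.125). Fads6, a less studied family member, was at 5.24, 5.22 and 5.28 in DMSO and 5.78, 5.85 and 4.89 in Torin1. Torin1 1 and 2 were above and Torin1 3 below all DMSO values, so the gene was not called over 6 arrays (0.26 ± 0.24, limma adjusted p = 0.642) and was called higher without Torin1 3 (0.57, adjusted p = 0.00459).

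**Figure D2:**
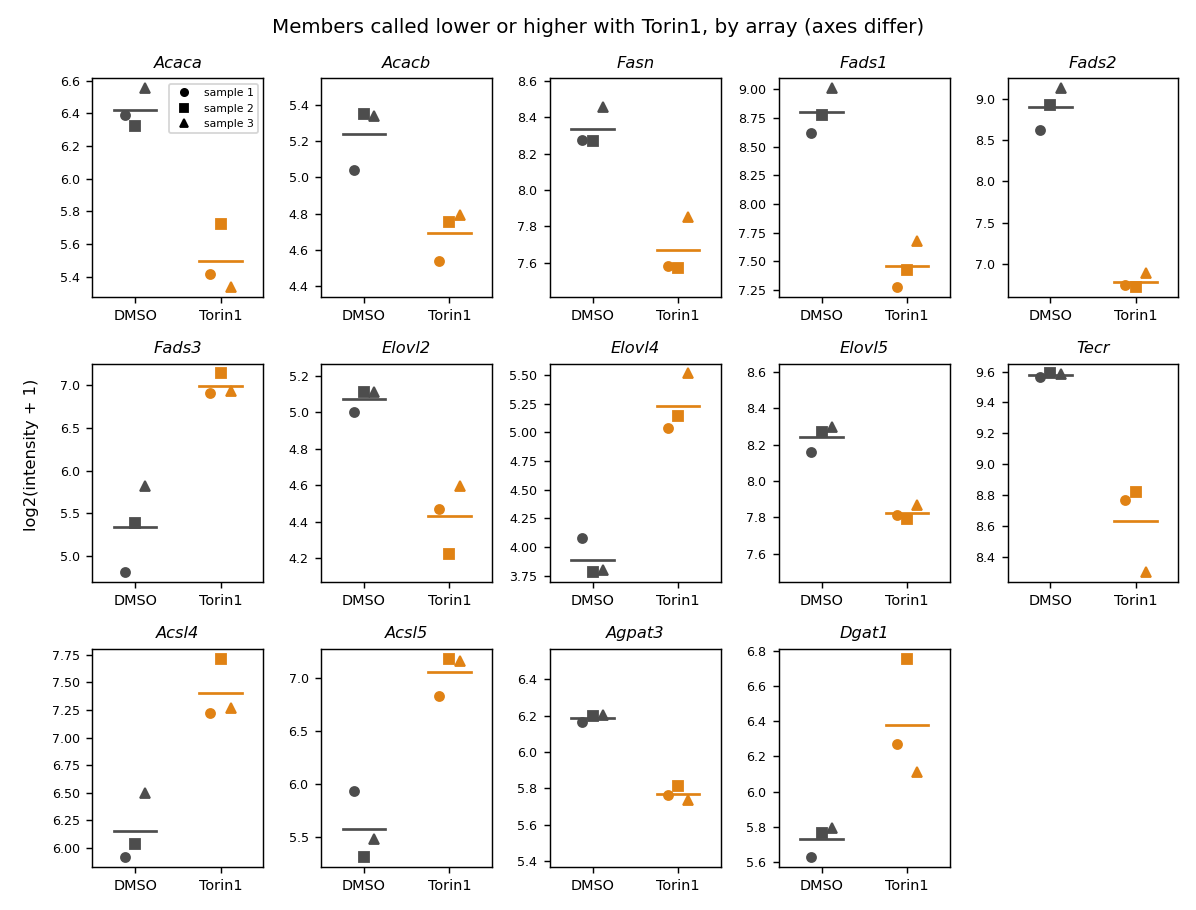
Log2(intensity + 1) on the vertical axis of each panel for the 14 called members in 3 DMSO and 3 Torin1 arrays; circles, squares and triangles are samples 1, 2 and 3, horizontal lines are group means, and the vertical axes differ between panels. In none of the 14 panels do the groups overlap, and Fads2 falls from 8.63 or more to 6.90 or less.

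Among elongation genes, Elovl5, Elovl2 and Tecr fell and Elovl4 rose. Elovl5, an elongase of polyunsaturated fatty acids, was at 8.16, 8.27 and 8.30 in DMSO and 7.81, 7.79 and 7.87 in Torin1. The spread was small in both groups, and the gene fell by 0.42 ± 0.07 (limma, adjusted p = 0.0125). Without DMSO 3 its change was -0.39 and the call was lost (limma, adjusted p = 0.0588). Elovl2, which acts on longer polyunsaturated chains, was at 5.00, 5.11 and 5.11 in DMSO and 4.47, 4.22 and 4.59 in Torin1. It fell by 0.65 ± 0.11 with no overlap (limma, adjusted p = 0.00995), and by 0.41 with a pseudocount of 16. Tecr encodes the reductase that closes each elongation cycle, whatever the elongase, and went from 9.57, 9.59 and 9.58 to 8.77, 8.82 and 8.30. Its DMSO values were nearly equal, and it fell by 0.95 ± 0.14, or 1.93-fold (limma, adjusted p = 0.00614).

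Elovl4, an elongase of very long chains, was at 4.08, 3.79 and 3.80 in DMSO and 5.04, 5.14 and 5.51 in Torin1. It rose by 1.34 ± 0.15, or 2.54-fold, with no overlap (limma, adjusted p = 0.00176). The DMSO mean of 3.89 is below the median gene (4.17), and with a pseudocount of 16 the change was 0.82, so its size is uncertain. Elovl6, which lengthens palmitate, was at 5.67, 5.76 and 6.18 in DMSO and 5.34, 5.69 and 4.30 in Torin1. The groups overlapped, Torin1 3 was lowest, and the change of -0.76 ± 0.34 was not called (limma, adjusted p = 0.237; -0.36 without Torin1 3). Elovl1, Elovl3 and Elovl7 had changes of 0.00, 0.08 and 0.15 and were not called, and Elovl3 and Elovl7 were dim, with all 12 values between 2.60 and 4.15.

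Both called activation genes rose. Acsl4 encodes the acyl-CoA synthetase that prefers arachidonic acid and related polyunsaturated chains. It was at 5.92, 6.03 and 6.50 in DMSO and 7.22, 7.72 and 7.27 in Torin1. No values overlapped, and the rise was 1.25 ± 0.19, or 2.38-fold (limma, adjusted p = 0.00704). Acsl5, for a synthetase of mitochondria and endoplasmic reticulum, went from 5.93, 5.31 and 5.48 to 6.83, 7.19 and 7.16. It rose by 1.48 ± 0.18, or 2.80-fold (limma, adjusted p = 0.00262), and both genes were called in every leave-out of 1 array. Acsl6 was at 4.12 to 4.62 in DMSO and 4.19 to 4.47 in Torin1 and was not called (0.04 ± 0.15, limma adjusted p = 0.927). Its second, dimmer probe set gave 0.04 as well.

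In glycerolipid assembly Agpat3 fell and Dgat1 rose, and the other 8 genes were not called. Gpam encodes the mitochondrial acyltransferase that places the first acyl chain on glycerol 3-phosphate. It was at 8.23, 8.97 and 9.15 in DMSO and 7.52, 7.54 and 5.84 in Torin1. All Torin1 values were below all DMSO values, yet Torin1 3 lay far under the other 2, and the change of -1.82 ± 0.48 missed the threshold (limma, adjusted p = 0.0532). Without Torin1 3 the change was -1.25 and called lower (adjusted p = 0.0210). With no pseudocount, quantile normalization, the filter on dim genes, or Torin1 2 and 3 averaged, it was also called (adjusted p 0.0201 to 0.0480).

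Of the acylglycerolphosphate acyltransferases, which add the next acyl chain, only Agpat3 was called. Agpat3 was at 6.17, 6.20 and 6.20 in DMSO and 5.76, 5.82 and 5.74 in Torin1, and fell by 0.42 ± 0.07 against a spread of 0.02 and 0.04 (SD) within the groups (limma, adjusted p = 0.00887). Agpat1, Agpat2, Agpat4 and Agpat5 had changes between -0.35 and 0.14 and were not called. The phosphatidate phosphatase genes Lpin2 and Lpin3 had changes of 0.24 and 0.31 and were not called.

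The 2 genes for enzymes that complete triacylglycerol had changes of opposite sign, of which only that of Dgat1 was called. Dgat1 was at 5.63, 5.76 and 5.79 in DMSO and 6.27, 6.76 and 6.11 in Torin1. It rose by 0.65 ± 0.16 with no overlap (limma, adjusted p = 0.0454), just inside the threshold, and its call was lost on leaving out any DMSO array or Torin1 1 (highest adjusted p 0.145) or with a pseudocount of 16 (adjusted p = 0.0858). Dgat2 was at 7.14, 6.76 and 7.10 in DMSO and 6.82, 6.75 and 6.29 in Torin1, overlapped, and was not called (-0.38 ± 0.17, limma adjusted p = 0.226).

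No storage or lipolysis gene was called in the limma fit on log2(intensity + 1) over 6 arrays. Plin3, for a coat protein of nascent lipid droplets, had the smallest p of these 4 genes. It was at 6.50, 6.34 and 6.66 in DMSO and 6.03, 6.21 and 5.75 in Torin1. The groups did not overlap, and its change was -0.50 ± 0.14 (limma, adjusted p = 0.0626). Without Torin1 2 the change was -0.61 and called lower (adjusted p = 0.0463). Plin3 was also called lower with quantile normalization, the filter on dim genes, or Torin1 2 and 3 averaged (limma, adjusted p 0.0287 to 0.0425). Plin2, the constitutive droplet coat protein of most cells, was at 5.79, 5.75 and 5.84 in DMSO and 6.11, 6.33 and 5.14 in Torin1. Torin1 1 and 2 were above all DMSO values and Torin1 3 below them, and the change was 0.07 ± 0.28 over all samples (limma, adjusted p = 0.945) and 0.42 without Torin1 3, where it was called higher (adjusted p = 0.0302).

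Pnpla2, the adipose triglyceride lipase that opens lipolysis, was at 6.76 to 7.03 in DMSO and 6.92 to 6.99 in Torin1, within the same range. Its change was 0.02 ± 0.09 (limma, adjusted p = 0.942). Lipe, the hormone-sensitive lipase gene, was close to the median gene, at 4.19, 4.41 and 4.44 in DMSO and 4.13, 3.95 and 3.94 in Torin1, with no overlap and no call (-0.34 ± 0.10, limma adjusted p = 0.0771). The lipogenic regulator Mlxipl (ChREBP, a glucose-responsive factor) was at 4.55, 4.87 and 4.75 in DMSO and 4.41, 4.53 and 4.54 in Torin1. Neither it (-0.23 ± 0.10, limma adjusted p = 0.228) nor Thrsp, which promotes lipogenesis in liver (-0.27 ± 0.12, adjusted p = 0.252), was called.

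Torin1 sample 3 separated from the other Torin1 samples at a subset of these genes. It lay more than 0.5 below both at 6 of 37 members (16.2%) and more than 0.5 above both at 1 (2.7%), against 3.44% and 2.87% of all genes and 6.28% and 4.88% of genes above the median gene. The 6 were Acss2, Scd1, Fads6, Elovl6, Gpam and Plin2, where Torin1 3 minus the mean of the others ran from -0.93 (Fads6) to -1.91 (Scd1), and the 1 above was Acly, by 0.69. Among 104 other lipid genes it lay below both at 9 (8.65%) and above both at 7 (6.73%). Those below included Lpin1, Lpcat3 and Acsbg1, at -1.17, -1.16 and -1.50, and those above included Fabp4, Trib3 and Mboat1, at 2.34, 0.89 and 0.88. All of these but Lpin1 and Mboat1 were named after their values were seen. None of the 14 called members was among the 7 members at which Torin1 3 stood apart. A wide spread within Torin1 itself works against a call, so this does not show that the calls are independent of that sample.

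**Figure D3:**
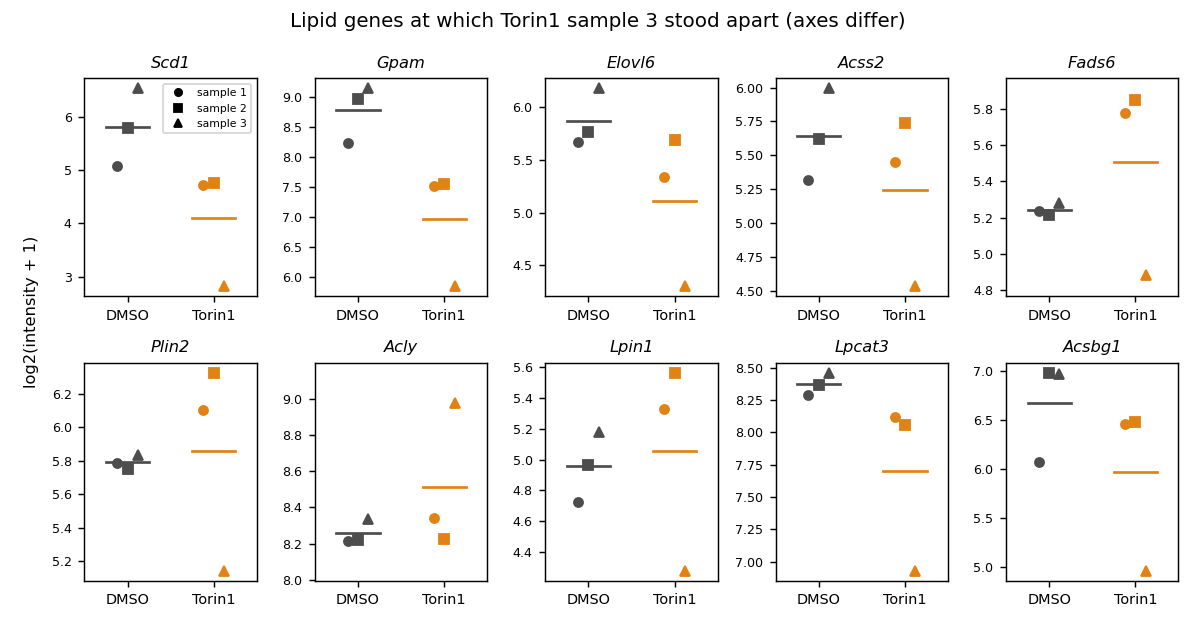
Log2(intensity + 1) by array for the 7 members at which Torin1 sample 3 (triangle) lay more than 0.5 from both other Torin1 samples, and for Lpin1, Lpcat3 and Acsbg1; lines are group means and vertical axes differ. The triangle is the lowest Torin1 value in every panel but that of Acly, where it is highest, at 8.97.

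DMSO samples also differed among themselves at these genes. DMSO 3 was the highest control at 22 of 37 members (59.5%) and DMSO 1 the lowest at 22 (59.5%), against 33.8% and 34.3% of all genes and 42.1% and 30.7% of genes above the median gene. Scd1, with 5.08 in DMSO 1 and 6.53 in DMSO 3, and Fads3, with 4.81 and 5.82, had the widest gaps between the 2 samples. No DMSO value of a called member overlapped with Torin1 despite this spread.

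Regulators of the route were mostly near 0 at the RNA level. Of 19 measured genes of SREBP, LXR and PPAR control 3 fell, 0 rose and 16 were not called, with a median log2 change of -0.08. Of these 19 genes 17 lay above the median gene, and among all genes above it 12.6% fell and 9.46% rose. In a list of this size these counts are near that background. Srebf2, the SREBP gene best known for sterol synthesis, was at 7.61, 7.54 and 7.84 in DMSO and 6.94, 7.19 and 6.84 in Torin1. It fell by 0.68 ± 0.12 with no overlap (limma, adjusted p = 0.0137), but lost its call without DMSO 3 or Torin1 1 (adjusted p up to 0.0523). Srebf1, the SREBP gene best known for fatty acid synthesis, was at 6.30, 6.39 and 6.56 in DMSO and 6.32, 6.57 and 6.13 in Torin1. Its groups overlapped throughout (-0.08 ± 0.13, limma adjusted p = 0.835). Its RNA does not report the processing of its protein, which was not measured.

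Scap, the escort protein of SREBPs, changed by 0.00 ± 0.07, and Insig1, which retains them in the endoplasmic reticulum, by -0.32 ± 0.10 (limma, adjusted p = 0.0932); neither was called. Mbtps1, a protease that cleaves SREBPs, fell by 0.41 ± 0.07 (limma, adjusted p = 0.0146), a call that leaving out DMSO 1 or 3 or Torin1 1 ended (highest adjusted p 0.0596). Mlxip, which encodes the ChREBP relative MondoA, fell by 0.51 ± 0.08 (limma, adjusted p = 0.00970). Mlx, the shared partner of both, had a change of -0.07 ± 0.11 and was not called (adjusted p = 0.809). Lpin1, a phosphatidate phosphatase that also acts in the nucleus, was at 4.73, 4.97 and 5.18 in DMSO and 5.33, 5.56 and 4.28 in Torin1, so 2 Torin1 samples lay above every DMSO value and 1 below, and the change was 0.10 ± 0.32 (limma, adjusted p = 0.924). Without Torin1 3 it was 0.49 (adjusted p = 0.0807).

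Of the 20 measured genes that supply or process acyl chains 4 fell, 0 rose and 16 were not called (median -0.23). Among all genes 6.94% fell and 5.13% rose. Of these 20 genes 16 lay above the median gene, and among all genes above it 12.6% fell and 9.46% rose. For rises, a list of this size with 0 is near either background. The falls, 4 of 20, took a larger share than either background, and this difference was not tested. Hacd1, a dehydratase of the elongation cycle in which Tecr also acts, was at 5.52, 5.70 and 5.89 in DMSO and 4.68, 4.94 and 4.48 in Torin1. It fell by 1.00 ± 0.14, or 2.00-fold, with no overlap (limma, adjusted p = 0.00533). Acot1, an acyl-CoA thioesterase with the near-identical copy Acot2, fell by 0.89 ± 0.12 (limma, adjusted p = 0.00458), with a change of -0.545 at a pseudocount of 16, and signal shared with the copy makes its value uncertain. Cbr4 and H2-Ke6 (Hsd17b8), which form the ketoacyl reductase of mitochondrial fatty acid synthesis, fell by 1.05 ± 0.23 and 0.43 ± 0.10 (limma, adjusted p = 0.0268 and 0.0289), and both lost the call on leaving out any DMSO array or Torin1 1 (highest adjusted p 0.0970). Slc25a1, the mitochondrial citrate carrier, at -0.51 ± 0.15 (limma, adjusted p = 0.0828), and Hsd17b12, the ketoreductase of elongation, at -0.19 ± 0.09 (adjusted p = 0.262), were not called.

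Of 18 other lipid droplet and lipase genes 1 fell, 1 rose and 16 were not called, with a median of 0.06, near the background of 6.94% and 5.13% of all genes. Lipa, the lysosomal acid lipase gene, was at 5.59, 5.49 and 6.003 in DMSO and 4.73, 4.96 and 4.53 in Torin1. It fell by 0.96 ± 0.16 with no overlap (limma, adjusted p = 0.0111). Mgll, the monoacylglycerol lipase gene, rose by 0.34 ± 0.08 (limma, adjusted p = 0.0369; a change of 0.158 with a pseudocount of 16) but was dim, at 3.52 to 3.61 in DMSO, and only kept its call when the array left out was Torin1 3 (otherwise up to an adjusted p of 0.123). Abhd5, the activator of the lipase encoded by Pnpla2, was at 6.26, 5.92 and 6.20 in DMSO and 6.65, 6.58 and 6.40 in Torin1, without overlap. It was not called (0.42 ± 0.12, limma adjusted p = 0.0644). A call as higher came without Torin1 3 (limma, adjusted p = 0.0381), with quantile normalization (0.0304) and with the filter on dim genes (0.0486).

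**Figure D4:**
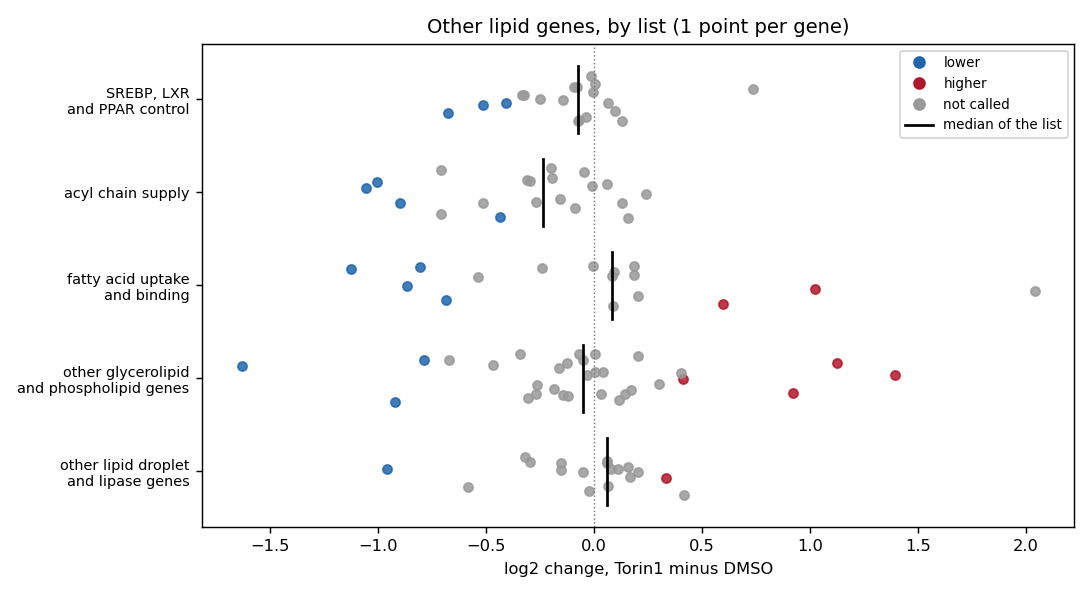
Log2 change (Torin1 minus DMSO) on the horizontal axis for each measured gene of 5 other lipid lists, 1 point per gene, with black lines for list medians and vertical scatter for legibility only. The list medians lie between -0.23 and 0.09, and the called genes range from -1.63 (Mboat1) to 1.40 (Gpat3).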

How the data were processed

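RNA from 3 DMSO and 3 Torin1 samples was hybridised to 1-colour Affymetrix mouse arrays, 1 array per sample. The deposited values are linear intensity values per probe set, made by the authors. The submitters' processing notes name GCOS, Expression Console 1.1 from Affymetrix, and RMA; their settings and order were not stated in the sources, and scanner values were not used here. Over 41345 probe sets they ran from 2.25 to 3268, with array medians of 11.1 to 11.97, and RMA, where applied, compresses changes of dim probe sets. The number of arrays, not read depth, limits the precision. Groups were taken from the labels.

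A gene table named 25335 probe sets, 23521 with 1 gene and 1814 with several, and left 16010 unnamed here; 23328 of those naming 1 gene matched RefSeq GRCm38.p6 by Entrez ID, and 0 symbols changed. The brightest probe set over 6 arrays stood for each of 22180 genes (1082 had several). Values were used as log2(intensity + 1), with no further normalization, and folds of dim genes come out too small on that scale. limma 3.58.1 (R 4.3.3) with lmFit and eBayes compared the groups over all genes with Benjamini-Hochberg adjustment; the fit was tested on simulated data. Lists are described by counts and medians, with no set test. Alternatives were other pseudocounts, a filter on dim genes, the mean over probe sets, quantile normalization, centred array medians, eBayes with trend and robust settings, a replicate block, Torin1 2 and 3 averaged as 1 sample, and each array left out.

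Members and lists were chosen with earlier results of these data known. The text names every measured member, and for other lists a fixed set of genes and the called genes with the largest changes. Cd36, Acbd3, Pcyt2, Pisd, Pgs1, Lpcat3, Acsbg1, Fabp7, Trib3, Fabp4 and Hilpda were named after their values were seen. So were the markers Ptch1, Gli1, Hsd3b1, Cyp17a1, Cyp11a1, Cdh5 and Cd68.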

Additional observations from a re-analysis of the deposited data

How the results depend on the processing

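Over the alternatives 7 to 12 members were called lower and 4 to 7 higher, against 9 and 5. Leaving out 1 array gave 7 to 10 and 4 to 7. The replicate block gave 7 and 4, losing Elovl5 (limma, adjusted p = 0.0630), Agpat3 (0.0608) and Dgat1 (0.0732). Of other named genes it lost Lipa (0.0533), Pcyt2 (0.0644), Srebf2, Mbtps1, H2-Ke6, Fabp5, Pcyt1a, Mgll, Acbd3 and Pgs1 (0.0630 to 0.133). Same-numbered samples correlated at -0.21, -0.30 and -0.15 in their deviations from group means. The highest values of other pairs were 0.31 (DMSO 2 with Torin1 1) and 0.305 (DMSO 3 with Torin1 2). A block under another numbering was not tested. Over all genes the block lowered the calls to 908 lower and 657 higher, and leaving out 1 array gave 844 to 1694 lower and 655 to 1389 higher. The median log2 change of synthesis genes was -0.37 with a pseudocount of 16, and that of elongation genes -0.53 with the filter on dim genes, which removes Elovl3 and Elovl7. Signs turned only for uncalled genes: Elovl1 (0.001 with a pseudocount of 16, 0.046 with quantile normalization, 0.022 centred, -0.133 to 0.072 without 1 array) and Scap (-0.017 over the mean of probe sets, -0.055 with quantile normalization, -0.030 to 0.030 without 1 array), and, without 1 array, Elovl3 (-0.002 to 0.123), Acsl6 (-0.060 to 0.193), Plin2 (-0.168 to 0.423), Pnpla2 (-0.062 to 0.073), Srebf1 (-0.192 to 0.029), Lpin1 (-0.154 to 0.488), Mlx (-0.144 to 0.014) and Hilpda (-0.015 to 0.475). The cause of these sign turns and of lost calls was not tested. Of the other gene values over the alternatives, 951 kept their direction and side of the threshold, 22 crossed into a call and 66 lost one. Among those crossing, Insig1 was called lower with quantile normalization (limma, adjusted p = 0.0385) and Slc25a1 with trend and robust settings (0.046). Agpat1 was called lower with a pseudocount of 16 (limma, adjusted p = 0.0298) and Elovl6 with Torin1 2 and 3 averaged (0.0483). Changes of dim genes depend on the pseudocount, and 3 arrays a group limit the precision.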

Other observations

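Of 16 measured genes of fatty acid uptake and binding 4 fell, 2 rose and 10 were not called, with a median log2 change of 0.09. Among all genes 6.94% fell and 5.13% rose, and among genes above the median gene 12.6% and 9.46%, so the count of rises is near the background. The fatty acid transport proteins had calls of opposite sign: Slc27a3 was at 5.999, 5.75 and 6.30 in DMSO and 5.07, 4.83 and 4.79 in Torin1 and fell by 1.12 ± 0.15 (SE; limma, adjusted p = 0.00430), and Slc27a4 was at 6.45, 6.40 and 6.48 in DMSO and 7.55, 7.57 and 7.27 in Torin1 and rose by 1.02 ± 0.10 (limma, adjusted p = 0.00112). Neither pair of groups overlapped. Cd36, a fatty acid translocase, went from 8.23, 8.11 and 8.32 to 7.59, 7.47 and 7.55 and fell by 0.68 ± 0.08 (limma, adjusted p = 0.00299). The fatty acid binding protein gene Fabp5 was at 9.69, 9.40 and 9.45 in DMSO and 8.46, 8.57 and 9.10 in Torin1 and fell by 0.80 ± 0.17 (limma, adjusted p = 0.0274). Dbi, the acyl-CoA binding protein, fell by 0.86 ± 0.22 (limma, adjusted p = 0.0451; a change of -0.50 with a pseudocount of 16). Fabp5 lost its call without any 1 array other than Torin1 3 (adjusted p up to 0.0958), and Dbi without DMSO 1, DMSO 2, DMSO 3 or Torin1 1 (up to 0.142) and with a pseudocount of 16, quantile normalization or centred medians. Acbd3, a Golgi protein with an acyl-CoA binding domain, rose by 0.60 ± 0.11 (limma, adjusted p = 0.0141), but lost its call without DMSO 1 or DMSO 3 (up to 0.0629). Fabp7 was at 5.80, 4.52 and 5.07 in DMSO and 7.65, 8.08 and 5.77 in Torin1, a difference of 2.04 ± 0.61 that was not called (limma, adjusted p = 0.0786). Without Torin1 3 the difference was 2.74 and called higher (adjusted p = 0.00319). Fabp4 stood at 5.50 in Torin1 3 and at 2.90 to 4.44 on the other 5 arrays.

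Of 31 measured genes of other glycerolipid and phospholipid steps 3 fell, 4 rose and 24 were not called (median -0.05), counts near the shares among genes above the median gene. Gpat3, an acyltransferase of the endoplasmic reticulum that performs the same first step as Gpam, was at 5.18, 4.94 and 5.25 in DMSO and 6.51, 6.69 and 6.35 in Torin1. It rose by 1.40 ± 0.12, or 2.63-fold, with no overlap on its brightest probe set (limma, adjusted p = 0.000690), and by 0.67 over the mean of its probe sets (adjusted p = 0.00568). Gpam was at -1.82 and not called over 6 arrays. Mboat1, a lysophospholipid acyltransferase, went from 6.57, 5.85 and 6.24 to 4.37, 4.22 and 5.18 and fell by 1.63 ± 0.28 or 3.09-fold (limma, adjusted p = 0.0112). Phosphatidylcholine and phosphatidylethanolamine synthesis share a route in which a CTP-dependent transferase is followed by a phosphotransferase. Pcyt1a, the choline transferase of that route, was at 6.50, 6.39 and 6.62 in DMSO and 7.87, 8.06 and 6.96 in Torin1. It rose by 1.13 ± 0.27 (limma, adjusted p = 0.0380), but lost its call without any 1 array other than Torin1 3 (up to 0.121). Pcyt2, the ethanolamine transferase, went the other way, from 6.19, 6.25 and 6.62 to 5.56, 5.61 and 5.12 and fell by 0.92 ± 0.17 (limma, adjusted p = 0.0141). Selenoi, the ethanolamine phosphotransferase that acts after Pcyt2, rose by 0.92 ± 0.14 (limma, adjusted p = 0.00774). Pisd, which makes phosphatidylethanolamine from phosphatidylserine in mitochondria, fell by 0.79 ± 0.12 (limma, adjusted p = 0.00695). Pgs1, an enzyme of cardiolipin synthesis, rose by 0.41 ± 0.09 (limma, adjusted p = 0.0249), but lost its call without DMSO 1, DMSO 2 or Torin1 2 (up to 0.0843).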
